A study of Mus musculus with 9 samples.

Results

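The genes described here are 31 genes of blood clotting and of clot removal, taken by symbol from a table of 56748 genes that were counted in mouse liver. They comprise the clotting factors, the 3 chains of fibrinogen, the contact system, the circulating and endothelial inhibitors of clotting, and the plasminogen system. RNA of whole liver was sequenced in 9 libraries of C57BL/6J mice (labelled C57BL/6), with 3 libraries each for the labels Control, DSS and Indirubin. The Control mice are labelled as given water. The DSS mice received 3 cycles of dextran sulfate sodium, an agent that injures the colon, each with 1 week of 1.8% DSS and 1 week of recovery, and sterile water by mouth (200 µL a day). The Indirubin mice had the same DSS cycles and 1 g/kg/day of indirubin, an indigoid compound of the herbal drug Indigo naturalis, in the same volume. The mice were 7 to 8 weeks old when purchased. Since the submitters' description mentions colitis for all mice, the state of the Control mice rests on the label "water". The study asked how indirubin injures the liver during intestinal inflammation.

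Clotting proceeds through proteases that activate one another in order. Tissue factor (F3) and factor VII start the extrinsic arm, factors XII, XI, IX and VIII form the intrinsic arm, and both lead to factor X, which with factor V turns prothrombin (F2) into thrombin. Thrombin cuts soluble fibrinogen into fibrin, and factor XIII cross-links it. Antithrombin (Serpinc1), heparin cofactor II (Serpind1) and the protein C system restrain these steps, and plasmin, made from plasminogen (Plg), dissolves the clot. Hepatocytes secrete most of these proteins, endothelial cells make von Willebrand factor (Vwf), thrombomodulin (Thbd) and much of factor VIII, and fibrinogen is a well-known acute-phase protein whose synthesis increases in inflammation.

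The libraries held 6514863 to 7944684 counts, of which 71.6% to 91.3% lay on mitochondrial genes, so that 569044 to 2132208 counts remained for nuclear genes. The 31 genes took 2.10% to 5.61% of the nuclear counts. Levels are given as normalized CPM, the count divided by a library size that TMM scaled over all 9 libraries, in the order of replicates 1, 2 and 3. Hepatocyte markers (9 of 10 in the table) were abundant in every library, with a summed level of 10753 to 26258 normalized CPM, the highest in DSS-3. Summed positive acute-phase genes other than fibrinogen (15 genes) stood at 690 to 1151 in the Control libraries, 2234, 9547 and 16636 in the DSS libraries, and 828, 9538 and 14473 in the Indirubin libraries. Thus Indirubin-1 lay among the Control libraries in this respect. Indirubin-2 and Indirubin-3 also held transcripts of pancreatic acinar cells (10 markers, summed at 1334 and 1317, against 0 to 19.5 in the other libraries). The same 2 libraries had the highest sums of erythroid markers (5 genes, 667 and 645, against 110.3 to 267) and of neutrophil markers (8 genes, 245 and 92.8, against 1.17 to 28.8). Mitochondrial counts were 71.6% and 77.2% in Indirubin-2 and Indirubin-3 and 72.4% in DSS-3, against 85.8% to 91.3% elsewhere. The part of these in the results was not tested. Each library was left out in turn, and the changes of call among the 31 genes are given. No fit left out Indirubin-2 and Indirubin-3 together.

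Compared per kilobase of gene, the fibrinogen chains were the most abundant of the 31 transcripts. In the Control mice Fga stood at 206 ± 42.0 normalized CPM per kb, Fgb at 197 ± 46.7 and Fgg at 192 ± 45.3 (SD, n = 3), and these 3 did not differ beyond their spread. Kng1, which encodes high-molecular-weight kininogen, followed at 134 ± 27.3. Next came Plg (64.5 ± 19.0), F2 (59.7 ± 11.8) and Serpinf2, the plasmin inhibitor (57.2 ± 20.5), which likewise overlapped. The order depends on the length deposited for each gene, such as 8546 bases for Serpinc1 and 2093 for Fgg. In normalized CPM not divided by length, the Control means were 751 for Fgb, 620 for Fga, 434 for Kng1, 401 for Fgg and 392 for Serpinc1. Endothelial products lay far lower, with Vwf at 0.165 ± 0.144 and F8 at 0.182 ± 0.184 normalized CPM per kb. The level spanned from 594 ± 257 (Fgg, DSS) down to 0 (F3, DSS, and Plau, Control). In bulk tissue, fewer cells of a type and less RNA per cell cannot be told apart.

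**Figure D1:**
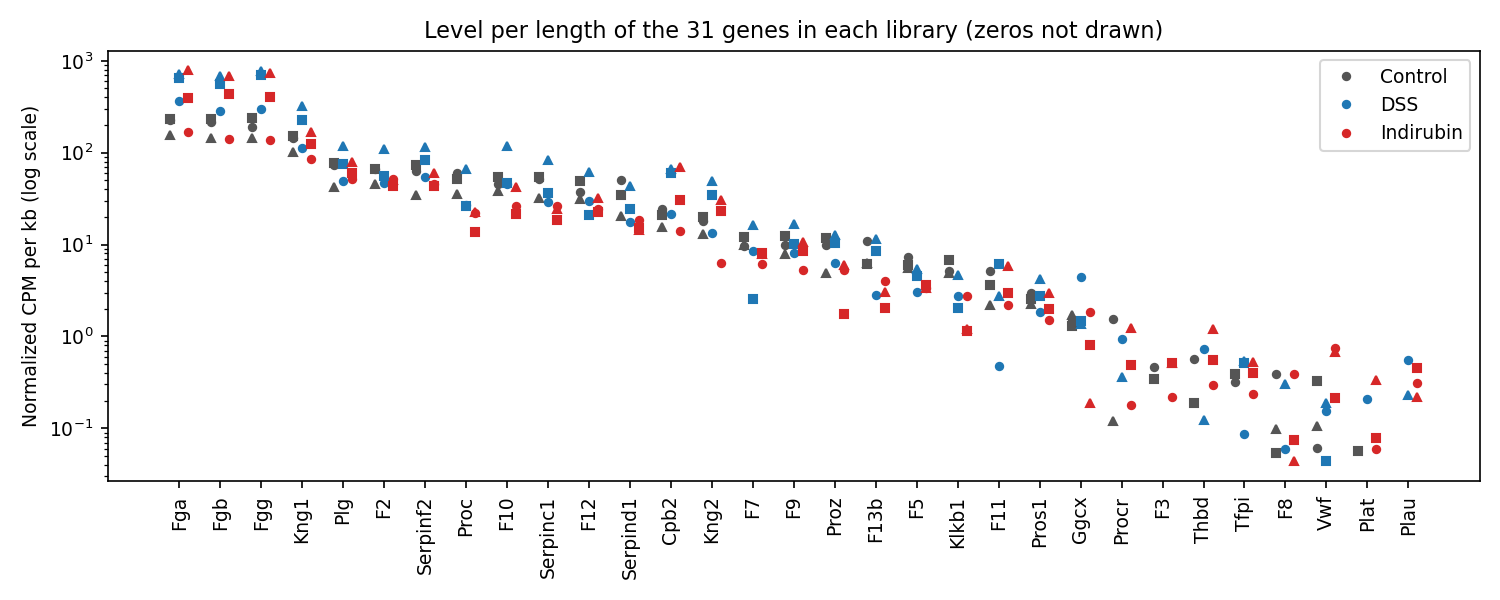
Level of each of the 31 genes per kilobase of gene (normalized CPM per kb, log axis), ordered by the Control mean. Every point is 1 library, grey for Control, blue for DSS and red for Indirubin, with circle, square and triangle for mouse 1, 2 and 3, and values of 0 are not drawn. The fibrinogen chains lead, and the transcripts from Procr on stand below 2 normalized CPM per kb.

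Fga, Fgb and Fgg lie next to each other on chromosome 3 (Fgg, ENSMUSG00000033860, 82915031 to 82922356, Fga, ENSMUSG00000028001, 82933383 to 82940934, and Fgb, ENSMUSG00000033831, 82947448 to 82957170, as the deposited table places them, GRCm39 per the processing notes of the submitters), with 11.03 kb between Fgg and Fga and 6.51 kb between Fga and Fgb. The 250 bases before each start site are shown because the levels of the 3 chains followed one another, with those of Cpb2, whose level followed them. They are RefSeq sequences on build GRCm38.p6, so their positions are not those of the table, and they read 5′ to 3′ in the direction of the gene. Fga is at chr3:83025903-83026152 (plus strand), Fgb at chr3:83049864-83050113 (minus strand), Fgg at chr3:83007474-83007723 (plus strand) and Cpb2 at chr14:75242037-75242286 (plus strand). Capitals mark CTGGGA, the core of the IL-6 response element of acute-phase genes.
Fga: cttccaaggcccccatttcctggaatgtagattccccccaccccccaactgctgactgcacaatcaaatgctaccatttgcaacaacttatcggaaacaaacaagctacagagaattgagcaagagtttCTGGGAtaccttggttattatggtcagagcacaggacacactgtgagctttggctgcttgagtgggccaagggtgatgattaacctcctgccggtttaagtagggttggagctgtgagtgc
Fgb: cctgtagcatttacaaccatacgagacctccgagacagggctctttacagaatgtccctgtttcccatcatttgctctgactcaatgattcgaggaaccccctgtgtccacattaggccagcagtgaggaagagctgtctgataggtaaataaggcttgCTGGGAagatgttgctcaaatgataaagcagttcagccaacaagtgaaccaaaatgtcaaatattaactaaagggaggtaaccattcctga
Fgg: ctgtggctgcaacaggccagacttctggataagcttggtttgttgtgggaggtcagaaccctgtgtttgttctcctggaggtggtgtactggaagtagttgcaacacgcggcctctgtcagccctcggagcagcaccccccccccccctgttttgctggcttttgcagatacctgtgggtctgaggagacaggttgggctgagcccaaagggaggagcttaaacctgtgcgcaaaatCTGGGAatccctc
Cpb2: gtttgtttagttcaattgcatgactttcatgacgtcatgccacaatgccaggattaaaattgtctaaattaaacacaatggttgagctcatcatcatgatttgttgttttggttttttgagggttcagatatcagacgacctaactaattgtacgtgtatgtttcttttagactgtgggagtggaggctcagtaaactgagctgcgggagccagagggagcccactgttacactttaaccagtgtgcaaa

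Each fibrinogen window held CTGGGA once and on the plus strand of the gene, 116 to 121 bases before the start in Fga, 86 to 91 in Fgb and 8 to 13 in Fgg. It was absent from the window of Cpb2. Among the 31 genes, 24 had a promoter in the RefSeq table, and 10 of these held CTGGGA on either strand, while 27.0% of all 32851 promoters did. The C/EBP motif TTGCNNAA was in 8 of the 24 (F9, F11, Fga, Fgb, Procr, Kng2, Klkb1 and Ggcx) and in 9.56% of all promoters. The STAT motif TTCNNNGAA, a palindrome, was in 4 (F9, Fga, Fgb and Pros1), against 7.02% of all. The HNF1 half-site GTTAAT was also in 4 (F13b, Fga, Fgb and Proz), against 6.43%. The HNF4 motif CAAAGTCCA was in none, and in 0.384% of all promoters, and GCGTG, the core of the dioxin response element, was in 4 (F11, Fgg, Serpinf2 and Ggcx), against 28.2%. Both strands were searched for each motif, a match here is not a binding site, and no binding was measured. In Fga the CTGGGA match lay 6 bases from the C/EBP match, and in Fgb likewise 5 bases from it.

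The comparison of the DSS with the Control mice asked how colitis bears on these genes in the liver. Fibrinogen transcripts stood 2.65- to 3.18-fold higher in the DSS mice, and Cpb2, the carboxypeptidase that protects fibrin from plasmin, was 2.47-fold higher. Plasma prekallikrein (Klkb1), the protease that releases bradykinin from kininogen, was 1.74-fold lower. The remaining clotting factors and inhibitors among the genes tested differed by less than 2-fold. None of the 25 genes tested passed an adjusted p of 0.05 in the quasi-likelihood test of edgeR after Benjamini-Hochberg adjustment, which 0.708% of the 7482 genes tested did.

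Among the genes of the extrinsic and common pathway, the fibrinogen chains were set apart. Fga was at 688, 697 and 474 normalized CPM in the Control mice and 1100.5, 1966 and 2179.6 in the DSS mice. Fgb was at 818, 885 and 548 in the Control mice and 1077, 2157 and 2577 in the DSS mice. Fgg was at 401, 495 and 306, against 629.9, 1456 and 1642. In each chain all 3 DSS libraries lay above all 3 Control libraries, and DSS-1 was the lowest of the DSS libraries. The log2 fold changes were 1.53 for Fga (SE 0.36, adjusted p = 0.0857), 1.40 for Fgb (SE 0.38, adjusted p = 0.180) and 1.67 for Fgg (SE 0.39, adjusted p = 0.0816). No other gene of the 25 was higher without overlap, 12% in all, against 7.91% of all genes tested. Fga, Fgb, Fgg, Cpb2 and Kng2 had an unadjusted p under 0.05 and a higher level, 20% of the 25, against 3.48% of all genes. The number higher was 9 of 25 with library size alone, where 11.3% of all genes were. It was 8 of 26 without DSS-1, where 3.11% of all genes were. With the DESeq2 Wald test, and with no filter on low counts, all 3 chains passed the adjusted threshold, as 1.75% and 0.676% of all genes did. They passed it together with Cpb2 when DSS-1 was left out, Fga at an adjusted p of 0.0266, Fgb at 0.0414, Fgg at 0.0139 and Cpb2 at 0.0296, which made 15.4% of the 26 genes tested there, against 0.797% of all genes. Over the alternatives run, the adjusted p of Fgg ran from 0.000339 to 0.576 and that of Fga from 9.43e-05 to 0.577. With library size alone the log2 fold changes were 2.21 for Fga, 2.09 for Fgb and 2.35 for Fgg, where the all-gene median was 0.70.

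**Figure D2:**
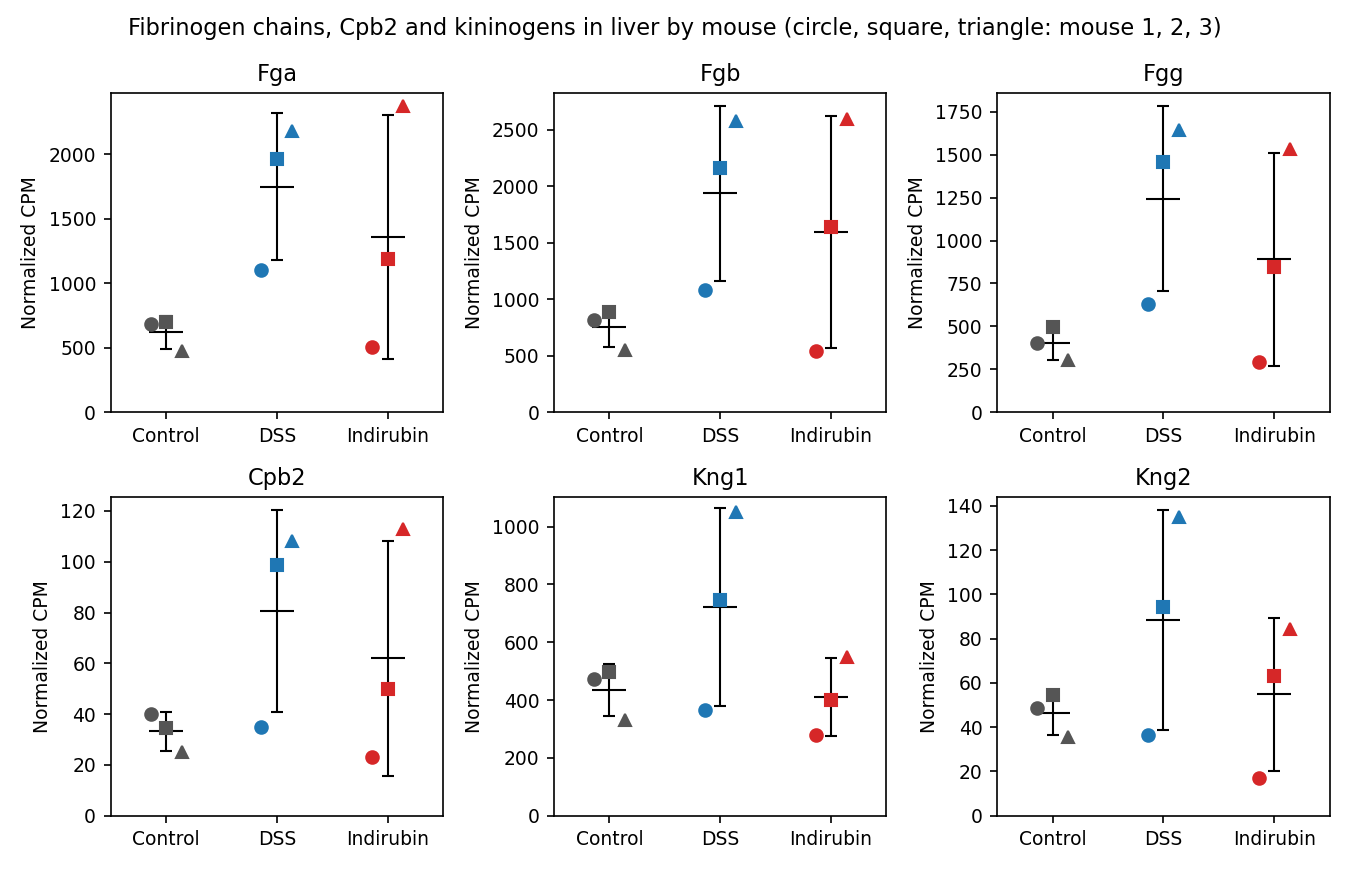
Normalized CPM of Fga, Fgb, Fgg, Cpb2, Kng1 and Kng2 in each library, with bars for the mean and SD of 3 mice (the bars of the DSS and Indirubin groups are wide). The DSS libraries of the fibrinogen chains lie above the Control libraries, and Indirubin-1 (red circle) lies at the level of the Control libraries in all 6 genes or below them.

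The other common-pathway factors differed little. Prothrombin (F2) was at 303, 308 and 212 in the Control mice and 216, 257 and 502 in the DSS mice (log2 0.27, SE 0.34). The cofactor F5, which speeds thrombin formation, was at 54.5, 44.7 and 41.2 in the Control mice and 22.4, 33.7 and 40.4 in the DSS mice. F5 was thus lower in every DSS library, though narrowly (log2 -0.51, SE 0.32, adjusted p = 0.864). With library size alone it was at 0.19, still below the all-gene median of 0.70. For F7, F10 and F13b, the B subunit of factor XIII, the groups overlapped, with log2 fold changes of -0.18, 0.63 and -0.02.

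The contact system holds the kininogens and prekallikrein. Kng2 was at 48.8, 54.6 and 35.6 in the Control mice and 36.3, 94.3 and 135 in the DSS mice (log2 0.96, SE 0.40, adjusted p = 0.581). Kng1 had a log2 fold change of 0.76 (SE 0.37, adjusted p = 0.709), and in both kininogens DSS-1 lay within the Control range. The kininogens are close paralogs 28.4 kb apart, so reads may be split between them. Klkb1 (ENSMUSG00000109764, chromosome 8, 45719726 to 45747896) was at 27.2, 35.4 and 25.8 in the Control mice and 14.3, 10.8 and 24.5 in the DSS mice (log2 -0.80, SE 0.36, adjusted p = 0.642, and log2 -0.03 with library size alone, where the median of all genes was 0.70). It was the 1 gene of the 25 with a lower level at an unadjusted p under 0.05 (4%, against 4.05% of all genes), and with F5 it made up the genes that were lower without overlap (8%, against 8.21%), shares near those of all genes. The number lower at that p was 0 with library size alone (0.949% of all genes), with no filter (2.46%) and in most fits with a library left out. It was 2 without DSS-3 (7.41%, against 5.05% of all genes). F9, F11 and F12 had log2 fold changes of 0.24, -0.18 and -0.06, and their groups overlapped.

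Of the 6 anticoagulants tested, none had an unadjusted p under 0.05 in DSS over Control. Of all genes tested, 3.48% were higher and 4.05% lower at that p, so none of 6 is near those shares. Serpinc1 (ENSMUSG00000026715, chromosome 1, 160806155 to 160833433) was at 439.5, 463 and 274 in the Control mice and 250.3, 313 and 712 in the DSS mice (log2 0.14, SE 0.38). All of them overlapped between the groups, with log2 fold changes from -0.29 (Proc, protein C) to 0.72 (Tfpi, the inhibitor of the tissue factor complex, SE 1.41). In the fibrinolytic system Cpb2 (ENSMUSG00000021999, chromosome 14, 75479727 to 75520995) was at 40.1, 34.5 and 25.1 in the Control mice and 34.8, 98.5 and 108 in the DSS mice (log2 1.31, SE 0.40, adjusted p = 0.271), so that DSS-1 again lay within the Control range. Plg was at 272, 288 and 158, against 182, 276 and 442 (log2 0.36, SE 0.36), and Serpinf2 had a log2 fold change of 0.60 (SE 0.35). Ggcx, the carboxylase that vitamin K-dependent factors need, was at 4.23 to 5.60 in the Control mice, against 14.3, 4.78 and 4.48 with DSS. The median log2 fold change of the 25 genes was 0.24 (16 above 0), against 0.01 over all genes tested, and it was -0.08 without DSS-3 and -0.01 without Control-3.

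In the Indirubin mice, 3 clotting factors (F5, F7 and F13b), 3 inhibitors (Serpinc1, Serpind1 and Proc) and Klkb1 lay below all Control libraries. Klkb1 was 3.28-fold lower, F13b 2.56-fold, Proc 2.48-fold, Serpind1 2.17-fold and Serpinc1 1.95-fold lower, while the fibrinogen chains were 2.17- to 2.28-fold higher with overlap. Vwf, the adhesive protein that carries factor VIII, was 3.31-fold higher, with overlap through Control-2. None of the 27 genes tested passed an adjusted p of 0.05, which 0.236% of 8059 genes did. This comparison shares its Control libraries with the one of the DSS mice, so the values of both are not independent.

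Of the 27 genes, 7 were lower without overlap (25.9%, against 9.07% of all genes tested) and none was higher without overlap, as 12.7% of all genes were. At an unadjusted p under 0.05, 6 were lower (22.2%, against 6.38%) and 1 was higher (3.70%, against 7.45%). Scaling by library size alone moved the median of all genes to 1.11. None of the 27 was then lower (1.33% of all genes were) and 6 were higher at that level (26.2% of all genes were), and Proc stood at -0.40 and Serpinc1 at -0.05, while the median of the 27 genes was 0.31 below that of all genes (0.36 below it with TMM). Klkb1 was at 14.5, 5.98 and 6.39 in the Indirubin mice, below the lowest Control library (25.8), with a log2 fold change of -1.71 (SE 0.43, adjusted p = 0.110). Proc was at 148, 129 and 88.2 in the Control mice and 54.5, 34.3 and 56.2 in the Indirubin mice (log2 -1.31, SE 0.38, adjusted p = 0.155). F13b was at 27.6, 15.7 and 16.1, against 10.1, 5.16 and 7.78 (log2 -1.36, SE 0.42, adjusted p = 0.174). In these 3 genes every Indirubin library lay below every Control library.

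Antithrombin and heparin cofactor II, the serpins that trap thrombin, were both lower. Serpinc1 was at 223, 158 and 210.5 in the Indirubin mice (log2 -0.96, SE 0.39, adjusted p = 0.289). Serpind1 was at 111, 75.7 and 44.6 in the Control mice and 40.2, 33.3 and 31.5 in the Indirubin mice (log2 -1.12, SE 0.40, adjusted p = 0.232). Protein Z (Proz), a cofactor of factor X inhibition, was at 55.1, 65.9 and 27.0, against 29.2, 9.67 and 33.2, and overlapped. F5 was at 24.8, 27.2 and 24.9 in the Indirubin mice (log2 -0.84, SE 0.34, adjusted p = 0.286). F7 was at 17.9, 22.7 and 18.3 in the Control mice and 11.6, 15.2 and 14.5 in the Indirubin mice (log2 -0.48, SE 0.35). With library size alone F5 was at 0.15 and F7 at 0.54, both still below the all-gene median of 1.11.

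**Figure D3:**
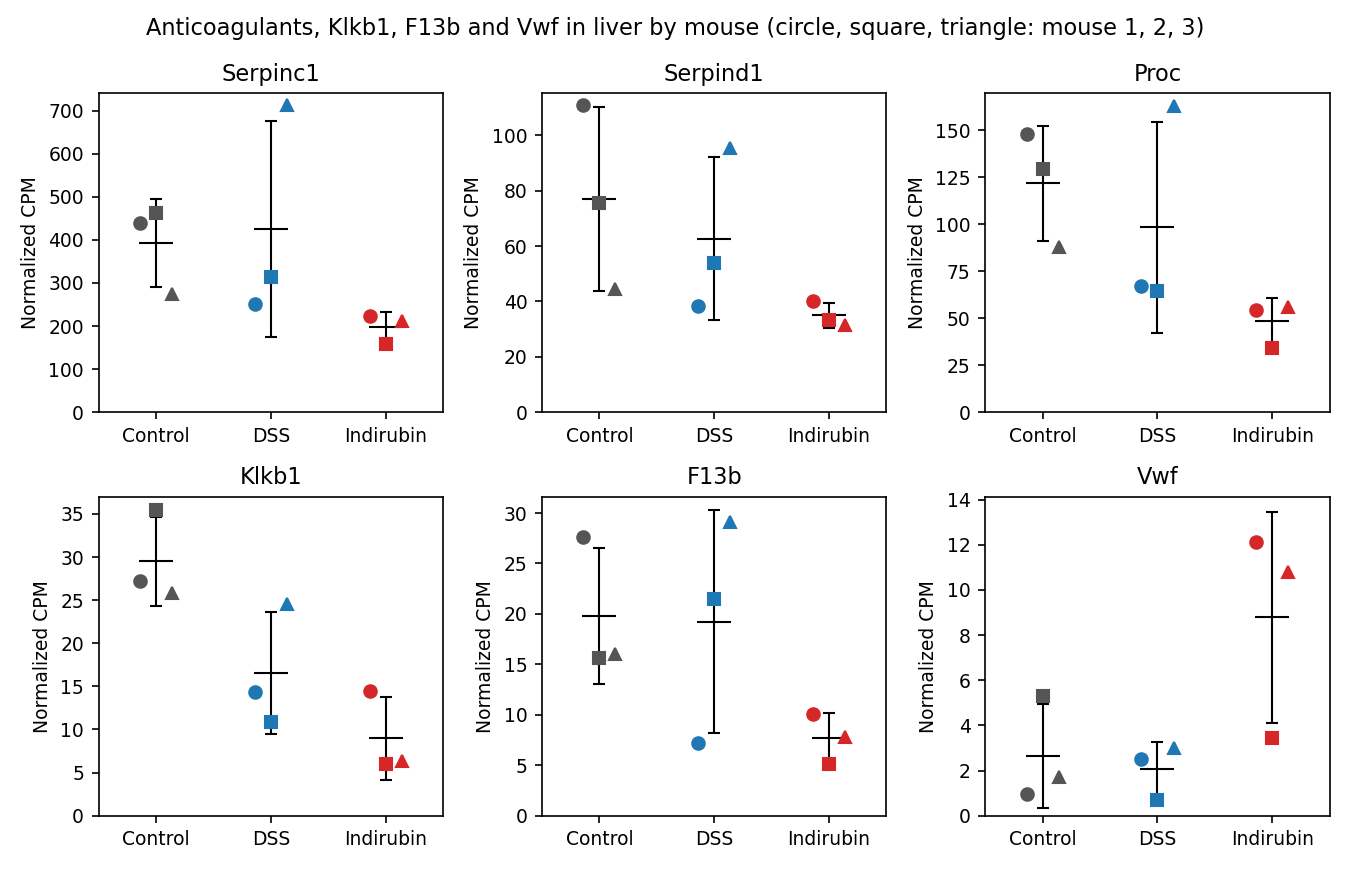
Normalized CPM of Serpinc1, Serpind1, Proc, Klkb1, F13b and Vwf in each library, with bars for the mean and SD of 3 mice. The Indirubin libraries of Serpinc1, Serpind1, Proc, Klkb1 and F13b lie below all Control libraries, and DSS-3 (blue triangle) is the highest DSS library in each panel.

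Fibrinogen was uneven among the Indirubin mice. Fga was at 504, 1190.0 and 2374, Fgb at 539, 1642 and 2595, and Fgg at 289.7, 848 and 1534. Indirubin-1 thus lay at the Control level in all 3 chains, and the other two lay above every Control library. The log2 fold changes over Control were 1.16, 1.12 and 1.19 (SE 0.54, 0.55 and 0.55). Without Indirubin-1, 6 of 28 genes (21.4%, against 4.78% of all genes in that fit) passed the adjusted threshold against Control: Fga (log2 1.41, adjusted p = 0.0423), Fgb (1.39, adjusted p = 0.0345) and Fgg (1.46, adjusted p = 0.0283) were higher, and Klkb1 (-2.36, adjusted p = 0.00282), Proc (-1.54, adjusted p = 0.0256) and F13b (-1.73, adjusted p = 0.0467) were lower. Without Indirubin-3, by contrast, the log2 fold change was 0.49 for Fga, 0.58 for Fgb and 0.55 for Fgg, and none of the clotting genes tested passed. The 2 Indirubin libraries of the fit without Indirubin-1 are the ones with the acinar transcripts, whose part in the result was not tested. With the DESeq2 Wald test and all libraries, Proc (adjusted p = 0.0189) and Klkb1 (adjusted p = 0.0160) passed, 7.41% of the 27 genes, against 3.92% of all genes. Over the alternatives run, the adjusted p of Klkb1 ran from 0.00282 to 0.372, that of Proc from 0.0189 to 0.605 and that of F13b from 0.0467 to 0.553.

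Cpb2 shared the uneven pattern, at 23.0, 49.99 and 113 in the Indirubin mice (log2 over Control 0.93, SE 0.51, and 0.17 without Indirubin-3), and so did Kng2 at 17.1, 62.9 and 84.4. Plg was at 189.9, 222 and 292 in the Indirubin mice, close on average to the Control mice (log2 0.00, SE 0.39). F2 was at 235, 199 and 234 (log2 -0.27, SE 0.37). The 7 vitamin K-dependent genes (F2, F7, F9, F10, Proc, Pros1 and Proz) had log2 fold changes from -1.31 (Proc) to -0.23 (Pros1, protein S), with a median of -0.48. Of these 7, Proc alone had an unadjusted p under 0.05, where 6.38% of all genes tested were lower and 7.45% higher. The median over the 27 genes was -0.23 (16 below 0), against 0.13 over all genes tested. Another list held 19 hepatocyte genes, mostly of plasma proteins, with the enzymes Cps1, Tat and Amdhd1 among them. Its median was -0.51 with 13 below 0. The hepatocyte markers, most of which are also in that list, had a median of -0.82 with 7 of 9 below 0. What these share with the members was not tested.

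The comparison of the Indirubin with the DSS mice is the one that bears on indirubin itself. Here factor X (F10), F13b, Proz, Serpinc1 and Proc were 2.03- to 2.52-fold lower in the Indirubin mice, and Vwf was 4.12-fold higher. The fibrinogen chains were 1.22- to 1.40-fold lower on average, well within their spread. No gene of the 9117 tested passed an adjusted p of 0.05 in edgeR's quasi-likelihood test (0%), while an unadjusted p under 0.05 went with a higher level in 4.45% of them and a lower level in 3.22%. Of the 27 genes tested here, 1 was higher (3.70%) and 5 were lower (18.5%) at that level. The number lower was 0 with library size alone (all-gene median 0.43), without DSS-3 and without Indirubin-2, where 1.13%, 1.48% and 2.00% of all genes were lower. It was 8 without DSS-1 (27.6%, against 3.54% of all genes) and 8 without Indirubin-1 (25.8%, against 5.35%).

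F10 (ENSMUSG00000031444, chromosome 8, 13087308 to 13106676), the protease on which both arms of clotting meet, was at 123, 129 and 324 normalized CPM in the DSS mice and 71.1, 59.4 and 117 in the Indirubin mice. The groups did not overlap, though Indirubin-3 came close to DSS-1 (log2 -1.22, SE 0.49, adjusted p = 0.587). Proz was at 35.3, 57.2 and 69.8 in the DSS mice, above the 33.2 of the highest Indirubin library (log2 -1.17, SE 0.49, adjusted p = 0.609). Serpinc1 (log2 -1.11, SE 0.49, adjusted p = 0.628) and Proc (67.1, 64.7 and 163 in the DSS mice, log2 -1.02, SE 0.46, adjusted p = 0.641) also lay below every DSS library. F13b, at 7.23, 21.4 and 29.1 in the DSS mice, overlapped through DSS-1 (log2 -1.33, SE 0.53, adjusted p = 0.577). Thus 4 genes were lower without overlap (14.8%, against 5.90% of all genes) and 1 was higher (3.70%, against 10.5%). F7, F10 and Proz lie in a row on chromosome 8, 1.498 and 4.24 kb apart, yet F7 (15.9, 4.78 and 30.5 in the DSS mice) had a log2 fold change of only -0.32 (SE 0.55).

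DSS-3 had the highest DSS level in each of these lower genes and in the hepatocyte markers. Without DSS-3 the log2 fold change was -0.96 for Proz, -0.91 for F13b, -0.62 for F10, -0.52 for Serpinc1 and -0.46 for Proc. The median over the 27 genes was -0.51 (22 below 0), against 0.15 over all genes tested, and -0.15 without DSS-3. The list of other hepatocyte genes had a median of -0.72, with 17 of 19 below 0 and the enzymes Cps1 and Tat above 0. The part of the hepatocyte markers in the result was not tested. Fga and Fgb had log2 fold changes of -0.37 (SE 0.61) and -0.28 (SE 0.63), and Fgg one of -0.48 (SE 0.63). With library size alone Fga was at 0.04, Fgb at 0.14 and Cpb2 at 0.02, all still below the all-gene median of 0.43. Single libraries moved the chains both ways: without Indirubin-1 Fga was at -0.08, Fgb at 0.02 and Fgg at -0.17, and without Indirubin-3 Fga was at -1.04, Fgb at -0.82 and Fgg at -1.12 (Cpb2 -1.13), none of which passed the adjusted threshold.

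Vwf (ENSMUSG00000001930, chromosome 6, 125523737 to 125663642) was read from few counts, 5, 30 and 7 in the Control mice, 21, 4 and 33 in the DSS mice and 66, 42 and 125 in the Indirubin mice. In normalized CPM this was 0.973, 5.28 and 1.70, then 2.49, 0.709 and 3.02, and then 12.1, 3.44 and 10.8. Every Indirubin library stood above every DSS library (log2 2.04, SE 0.70, adjusted p = 0.496), while Control-2 overlapped the Indirubin range (log2 over Control 1.73, SE 0.70, adjusted p = 0.292, and 2.69 without Control-2, adjusted p = 0.328). The summed level of 14 endothelial markers was 66.7 to 124 in the Control mice, 41.1 to 60.1 in the DSS mice and 83.8 to 110 in the Indirubin mice, so it too was higher in every Indirubin library than in the DSS libraries. Of these markers 13 of 14 had a positive log2 fold change of Indirubin over DSS. The summed platelet markers (8 genes) were at 2.66 to 19.0 in the DSS mice and 6.61 to 21.1 in the Indirubin mice, and overlapped. The part of either in the level of Vwf was not tested.

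**Figure D4:**
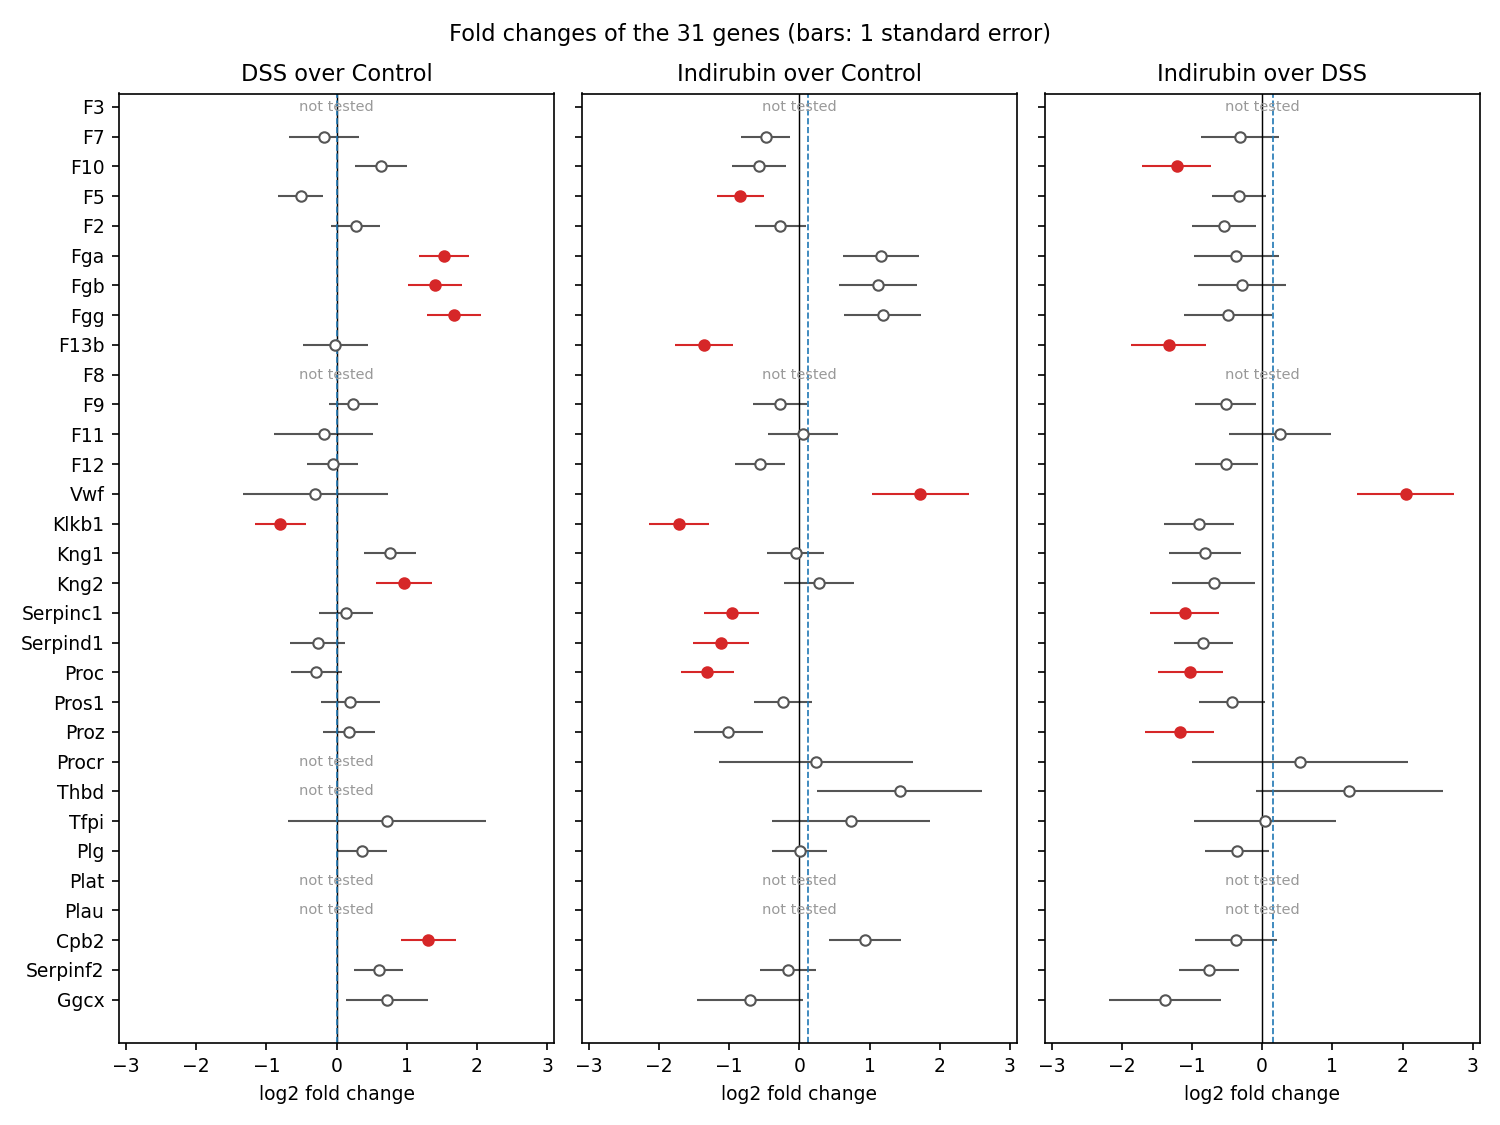
Log2 fold change of the genes tested (25 in DSS over Control, 27 in each of the others) with bars of 1 standard error, the rest of the 31 genes being marked as not tested, ordered by role from the extrinsic pathway to fibrinolysis and Ggcx. Filled red points have an unadjusted p under 0.05, open points do not, and the dashed line is the median of all genes tested. Fibrinogen and Cpb2 stand to the right in DSS over Control, and Klkb1, F13b, Serpinc1, Serpind1 and Proc to the left in Indirubin over Control.

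Ratios within a library do not depend on how libraries are scaled, and are given here as descriptions, from a set of 19 measures computed. The summed fibrinogen counts were 4.34, 4.49 and 4.84 times those of Serpinc1 in the Control mice, 11.2, 17.8 and 8.99 times in the DSS mice and 5.97, 23.2 and 30.9 times in the Indirubin mice. Every DSS and every Indirubin library stood above the Control libraries. For Indirubin-1 this depends on the denominator, since Serpinc1 was itself lower in the Indirubin libraries: over F2, fibrinogen was 6.30, 6.74 and 6.28 in the Control mice, 13.03, 21.7 and 12.7 in the DSS mice and 5.66, 18.5 and 27.8 in the Indirubin mice, with Indirubin-1 below all Control libraries. The sum of 5 hepatocyte-made inhibitors (Serpinc1, Serpind1, Proc, Pros1 and Proz) was 2.53, 2.41 and 2.09 times the normalized level of F2 in the Control mice, and 1.85, 1.94 and 2.11 times in those given DSS alone. In the Indirubin mice it was 1.502, 1.22 and 1.47 times, below all other libraries. Serpinc1 was the largest part of that sum, with a Control mean of 392 normalized CPM, against 651 for the sum. Klkb1 was 0.0899, 0.115 and 0.122 times F2 in the Control mice, 0.0666, 0.0420 and 0.0488 times in the DSS mice and 0.0616, 0.0301 and 0.0273 times in the Indirubin mice, so that both DSS-treated groups lay below the Control mice. The ratio of Plg to its inhibitor partner Serpinf2 was 1.45, 1.43 and 1.65 in the DSS mice, below the 1.78, 2.22 and 2.07 of the Indirubin mice, with the Control mice at 1.86, 1.67 and 1.98. An exact permutation test of 3 against 3 libraries cannot give a two-sided p below 0.10.

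**Figure D5:**
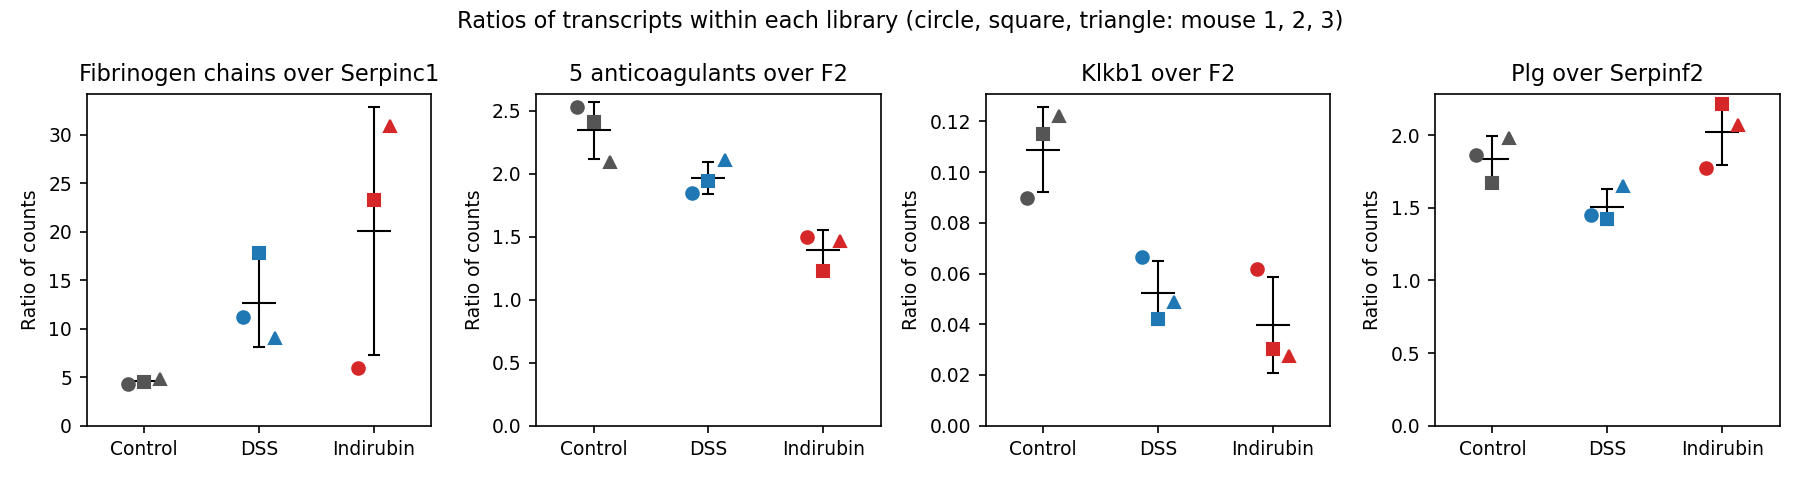
Ratios of transcripts within each library: summed Fga, Fgb and Fgg over Serpinc1, 5 anticoagulants over F2, Klkb1 over F2, and Plg over Serpinf2, with bars for the mean and SD of 3 mice. The 5 anticoagulants over F2 are at 1.22 to 1.502 in the Indirubin libraries and at 1.85 to 2.53 in the others, and Klkb1 over F2 is lower in all DSS and Indirubin libraries than in the Control libraries.

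The 3 fibrinogen chains assemble into 1 hexamer, and their sum ran from 1328 to 6504 normalized CPM. Of the summed chain counts Fgb held 42.9%, 42.6% and 41.3% in the Control mice, 38.4%, 38.7% and 40.3% in the DSS mice and 40.5%, 44.6% and 39.9% in the Indirubin mice. The share of Fgb was thus lower in every DSS library than in the Control libraries, by a few percentage points, while that of Fga (32.3% to 39.2%) and of Fgg (21.0% to 26.1%) overlapped between all groups. As a share of the counts of all 31 genes, fibrinogen was 44.0% to 45.5% in the Control mice, 60.4% to 69.4% in the DSS mice and 48.2%, 71.3% and 76.0% in the Indirubin mice.

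Genes with a pattern most like that of fibrinogen were sought among 9713 genes over the 9 libraries, by Pearson's r of log2 CPM with the mean of the 3 chains, as a description in which libraries and depth are shared. The non-members nearest to it were Itih3 (r = 0.98), Hp, haptoglobin (0.98), Apcs, serum amyloid P (0.97), Lrg1 (0.97) and Itih4 (0.97). Among the 31 genes Cpb2 came first after the chains (0.97), then Kng2 (0.88) and Kng1 (0.80), followed by Plg (0.70), Tfpi (0.66), Serpinf2 (0.65), F9 (0.64) and Pros1 (0.61). Further down, F10 was at 0.45, F2 at 0.33, Serpinc1 at 0.12, Proc at -0.09 and Klkb1 at -0.50. Klkb1 lies 4.66 kb from F11 on chromosome 8, and F11 was at 0.32. The acute-phase list other than fibrinogen had a median log2 fold change of 2.78 in DSS over Control, with 7 of 14 tested genes rising at an adjusted p under 0.05. Of all genes tested 0.214% rose at that threshold, and no member did so.

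Among 28 further haemostasis genes that are not members, 1 of 20 tested rose in DSS over Control and none fell. It was Fgl1, a fibrinogen-like protein secreted by hepatocytes, with a log2 fold change of 3.33 (SE 0.48, adjusted p = 0.00436). Fgl1 was no longer called without Control-2 (log2 3.37, adjusted p = 0.0612) or without Control-3 (log2 3.07, adjusted p = 0.0798), and its adjusted p over the alternatives ran from 5.96e-15 to 0.0798. The list had 15 of 19 log2 fold changes below 0 in Indirubin over DSS and 11 of 18 below 0 in Indirubin over Control, and none passed the adjusted threshold. Over Control, Fgl1 itself was higher in the Indirubin mice, with overlap (log2 1.82, SE 0.60, adjusted p = 0.189). It passed without Indirubin-1 (log2 2.14, adjusted p = 0.00251), where 4.78% of all genes did. With no filter on low counts it passed too (log2 1.84, adjusted p = 0.00708), as 1.66% of all genes did. The same held with library size alone (log2 2.98, adjusted p = 0.0391), where 3.30% did.

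The members made at low level in the liver gave few counts. F8 had 20, 3 and 4 counts in the Control mice, 5, 0 and 33 in the DSS mice and 21, 9 and 5 in the Indirubin mice, and was not tested. F3, the trigger of the extrinsic arm, had 6, 5 and 0 counts in the Control mice, none in any DSS library and 3, 16 and 15 in the Indirubin mice. Every DSS library was therefore below every Indirubin library, and against a floor of 3 counts per DSS library the mean in the Indirubin mice was at least 2.72-fold higher, a bound for counting error only. The plasminogen activator Plau had no count in the Control mice, 11, 0 and 6 in the DSS mice and 4, 13 and 6 in the Indirubin mice, at least 1.26-fold higher than the Control floor. Plat, the tissue-type activator, had 0, 2 and 0 counts, then 11, 0 and 0, and then 2, 6 and 24. The endothelial protein C receptor Procr had 16, 0 and 1, then 16, 0 and 8, and then 2, 12 and 29 counts. Thbd, which turns thrombin towards protein C, had 11, 4 and 0, then 23, 0 and 5, and then 6, 25 and 52 counts. Plau, Plat, Procr and Thbd overlapped between the Indirubin and DSS mice, and Plau and Plat were not tested. In Indirubin over DSS the log2 fold change was 0.54 for Procr (SE 1.54) and 1.24 for Thbd (SE 1.33). Over Control it was 0.24 for Procr (SE 1.39) and 1.43 for Thbd (SE 1.17), and neither gene passed the adjusted threshold. Their counts were few and spread widely between the libraries of a group. Tfpi ranged from 0 to 2.93 and Pros1 from 6.24 to 17.3 normalized CPM, with overlap in every comparison. F9, F11, F12 and Ggcx overlapped in every comparison as well, at 14.3 to 46.3, 1.07 to 13.8, 41.5 to 119 and 0.605 to 14.3 normalized CPM.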

How the data were processed

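Bulk RNA sequencing of liver was analysed in 3 groups of 3 libraries. Per the labels, the authors used the RNeasy Plus Micro Kit for RNA, put 400 ng into each library and read the libraries on a DNBSEQ instrument. The processing notes of the submitters name GRCm39, while the aligner, the counting program and the annotation are not given in the sources used here, nor is the strand setting. The counts deposited by the authors are whole reads per gene, without normalization. The FPKM values deposited by the authors are the counts divided by the gene length and by another library size than the total, and served here only as a check of the counts. The table also holds the authors' own fold changes and p-values, and 3 further lists name genes without values per library. None of these were used.

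The quasi-likelihood test of edgeR 4.0.16 (R 4.3.3) was applied to the counts after TMM scaling. Genes were kept by filterByExpr at 10 counts and a total of 15, only the 6 libraries of a comparison entered its fit, and p-values were adjusted by Benjamini-Hochberg over all genes tested. The standard error is the log2 fold change divided by the square root of F. The filter kept 27 of the 31 genes in Indirubin over DSS, 25 in DSS over Control and 27 in Indirubin over Control. F3, F8, Plat and Plau never passed it, and Procr and Thbd did not in DSS over Control. A gene that passed through the group where it was high had to differ, so counts over tested genes are descriptions. The labels number the libraries without naming animals, so p-values measure the spread between these libraries. The replicate numbers did not pair the libraries (correlation of deviations between -0.0248 and 0.0243), and no pair of libraries was a duplicate. Intervals and floors (3 counts) cover counting error only.

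The members and gene lists were chosen with earlier results of these data known. Values in each library are given for genes with an unadjusted p under 0.05 or without overlap in any comparison, for F2, Plg, Serpinc1, F8 and fibrinogen, and as counts for genes the filter removed. On simulated counts with 200 planted genes, 4-fold changes were recovered in 54.0% of cases in DSS over Control, 51.0% in Indirubin over Control and 21.2% in Indirubin over DSS, with 7482, 8059 and 9117 genes drawn. Alternatives were DESeq2 1.42.0 (size factors, Wald test), library size alone, no mitochondrial genes, no filter, at least 10 counts in every library, all 9 libraries in one fit, the replicate block, and each library left out. Promoters came from RefSeq on GRCm38.p6. Figures were drawn with matplotlib 3.10.9 in Python 3.11.15.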

Additional observations from a re-analysis of the deposited data

How the results depend on the processing

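The number of members past the adjusted threshold was 0 in all 3 comparisons. In DSS over Control it was 3 with no filter on low counts, 2 with a minimum of 10 counts per library, 3 with the DESeq2 Wald test, and from 0 to 4 with a library left out (4 without DSS-1). In Indirubin over Control it was 1 with no filter and 2 with the Wald test, and from 0 to 6 with a library left out (6 without Indirubin-1). In Indirubin over DSS it stayed at 0 under every alternative run. The number of members without overlap, 5 in Indirubin over DSS, was 1 with library size alone (3.70% against 12.5%) and 5 to 19 with a library left out (19 without DSS-1, 65.5% against 30.9% of all genes, 9 without Indirubin-1, 29.0% against 30.2%, and 8 without DSS-2, 25.8% against 26.3%). In DSS over Control it was 5, and 10 with library size alone (40.0% against 22.3%) and 5 to 11 with a library left out (11 without DSS-1, 42.3% against 26.2%, and 8 without DSS-3, 29.6% against 27.1%). In Indirubin over Control it was 7, and 2 with library size alone (7.41% against 32.3%) and 8 to 17 with a library left out (17 without Indirubin-1, 60.7% against 37.9%, and 12 without Control-3, 41.4% against 32.8%). A lone or smaller group overlaps less by construction.

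With library size alone the median of the members was 0.98 in DSS over Control and 0.79 in Indirubin over Control, the latter a turn in sign, while the median of all genes was 0.70 and 1.11. Against that median the members stood at 0.28 and -0.31, close to the 0.23 and -0.36 of TMM scaling. In Indirubin over DSS the median of all genes was 0.43. In DSS over Control the median of the members with a library left out ran from -0.078 (without DSS-3) to 0.41 and turned in sign without Control-3 (-0.0084). In Indirubin over DSS it ran from -0.80 to -0.15, and in Indirubin over Control from -0.45 to -0.12. With library size alone the shift of all genes also took single genes past 0 in Indirubin over DSS (Fga 0.043, Fgb 0.14, Cpb2 0.023), in DSS over Control (F5 0.19) and in Indirubin over Control (F5 0.15, F7 0.54), each still below the median of all genes. Fgb turned in sign in Indirubin over DSS without Indirubin-1 (0.023, in a leave-one-out range from -0.82). Apart from scaling and the libraries left out, the cause was not tested.

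The replicate number as a block left 0 members called in every comparison, with medians of -0.51 in Indirubin over DSS, 0.20 in DSS over Control and -0.26 in Indirubin over Control. Libraries of the same number did not deviate together, so the numbers were not taken as pairs.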
